A study of Mus musculus with 6 samples.

Results

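The genes described here encode the proteins of the large subunit of the mitochondrial ribosome that carry the symbol *Mrpl* and a number. They were chosen by name, as every protein-coding gene of the deposited embryonic heart table whose symbol starts with Mrpl followed by a digit, and the rule used no measured value. It found 49 genes with 100 transcripts among the 26191 genes and 60776 transcripts of the table. The table gives FPKM, the fragments of a transcript per kilobase of its length and of library size, and the values of a gene's transcripts were summed. All 49 reached 1 FPKM in 3 or more of the 6 libraries, the limit for entering the test.

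Mouse hearts at embryonic day 12 were compared between a control group, Mrps5 fl/fl (Ctrl), and a mutant group, Mrps5 fl/fl; cTNT-Cre (cKO), with 3 libraries each. By the sample titles both groups carried 2 floxed alleles of *Mrps5*, which encodes a protein of the small mitoribosomal subunit, and they differed by the Cre transgene. The study's text also gives fl/fl for the mutant embryos, while a supplementary figure legend names the mutant hearts Mrps5 fl/+ with Cre. The troponin T2 promoter drives this Cre in cardiomyocytes, so the endothelial, epicardial, mesenchymal and blood cells of the same hearts keep the gene. The embryos were littermates, each library was a pool of hearts by the study's methods, and ribosomal RNA had been removed from total RNA before stranded library preparation.

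The mitochondrial ribosome translates the few messenger RNAs encoded by mitochondrial DNA, which specify core subunits of the respiratory chain and of ATP synthase. Its ribosomal RNAs come from mitochondrial DNA, whereas all of its proteins are encoded in the nucleus, made in the cytosol and imported. The large subunit holds the peptidyl transferase centre and the exit tunnel, lies against the inner membrane, and combines counterparts of bacterial ribosomal proteins with proteins found only in mitochondria. The comparison asked whether the messenger RNAs of the large subunit differed in hearts in which a protein of the small subunit was deleted.

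The deleted gene was examined first. The FPKM of *Mrps5* (ENSMUSG00000027374) was 9.65, 11.4 and 10.4 in Ctrl replicates 1, 2 and 3 and 5.28 and 7.41 in cKO replicates 1 and 2. It was 10.4 in the library labelled cKO replicate 3, inside the Ctrl range. The limma log2 fold change, on the log2(FPKM + 1) scale and as cKO minus Ctrl throughout, was -0.44 with an adjusted p of 0.338, without that library -0.66 with an adjusted p of 0.0691, and without cKO replicate 1 -0.23 with an adjusted p of 0.578. The counts of large subunit genes called are therefore also given without it. A sum over transcripts cannot show whether the floxed exon was present. The depth of the libraries is unknown because the table holds no counts. Erythroid marker genes took 12.0% to 13.3% of summed FPKM in Ctrl libraries and 10.8% to 23.5% in cKO libraries, and the summed FPKM of 8 cardiomyocyte markers was 8997 to 10886 in Ctrl and 7183 to 8831 in cKO, with no cardiomyocyte marker listed at 0. Apart from fits that took the erythroid share into account, the part of these differences in the values below was not tested. In bulk tissue, fewer cells of a type cannot be told apart from less RNA per cell.

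All large subunit genes were expressed in the hearts of both groups. Mean FPKM over the 6 libraries ran from 5.72 for *Mrpl17* to 100.6 for *Mrpl42*, a 17.6-fold range, with a median of 21.7. Levels between 10 and 30 FPKM were found for 30 genes, 6 were above 50 and 6 below 10. The libraries of a group were close, with a median coefficient of variation over genes of 6.35% in Ctrl and 6.79% in cKO. Of the 48 pairs of neighbours in the order of levels, 46 had overlapping ranges over the 6 libraries. The exceptions were *Mrpl42*, whose lowest library of 85.6 FPKM lay above the highest of *Mrpl52*, 71.4 FPKM, and *Mrpl30*, whose lowest library of 43.9 FPKM lay above the highest of *Mrpl20*, 43.0 FPKM.

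**Figure D1:**
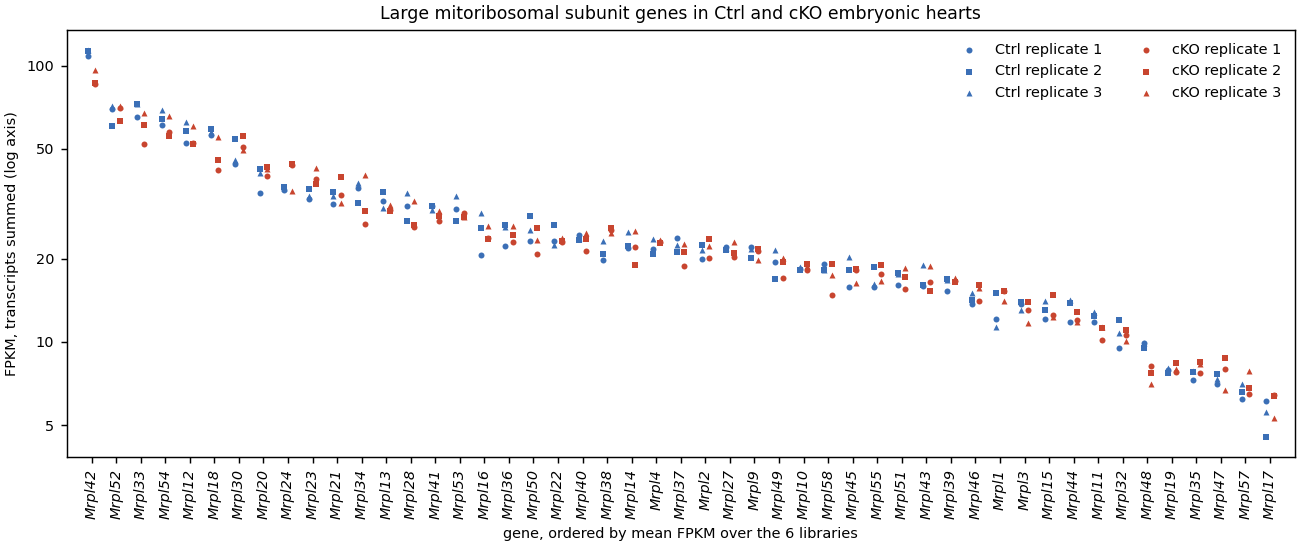
FPKM of each of the 49 large subunit genes (y axis, log scale, transcripts summed) in the 3 Ctrl libraries (blue) and 3 cKO libraries (red), ordered by mean FPKM on the x axis; the marker shape gives the replicate. Means run from 100.6 FPKM for *Mrpl42* to 5.72 FPKM for *Mrpl17*, and in most genes the blue and red points lie over the same range.

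The highest level was that of *Mrpl42*, which encodes a protein found only in mitochondrial ribosomes. The next was *Mrpl52* (ENSMUSG00000010406), another mitochondria-specific protein, with 69.8, 60.6 and 71.4 FPKM in Ctrl replicates 1, 2 and 3 and 70.3, 63.2 and 71.4 FPKM in cKO replicates 1, 2 and 3. In both groups replicate 2 was the lowest, and the groups overlapped almost fully. *Mrpl33* (ENSMUSG00000106918), the counterpart of bacterial protein L33, had 65.1, 72.8 and 72.3 FPKM in Ctrl and 51.9, 60.9 and 67.2 FPKM in cKO. Its log2 fold change was -0.23 (standard error, SE, 0.11; limma adjusted p = 0.376, with Benjamini-Hochberg adjustment over all genes tested). The cKO replicates 1 and 2 lay below all Ctrl libraries and cKO replicate 3 among them.

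At the other end stood *Mrpl17* (ENSMUSG00000030879), the counterpart of bacterial L17, with 6.11, 4.52 and 5.59 FPKM in Ctrl and 6.40, 6.40 and 5.30 FPKM in cKO. *Mrpl57* (ENSMUSG00000021967), a small mitochondria-specific protein, had 6.21, 6.60 and 7.05 FPKM in Ctrl and 6.46, 6.82 and 7.86 FPKM in cKO. *Mrpl47* (ENSMUSG00000037531), the counterpart of bacterial L29 at the exit tunnel, had 7.06, 7.65 and 7.31 FPKM in Ctrl and 7.998, 8.77 and 6.69 FPKM in cKO. In these 3 genes at least 1 cKO library lay inside or below the Ctrl range, and their log2 fold changes were 0.14, 0.08 and 0.07.

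FPKM is a level per length, and within the large subunit it went with transcript length. The most abundant transcript of each gene was 418 to 7300 bases long, with a median of 1288 bases, against 2934.5 bases over the 12030 protein-coding genes tested. *Mrpl52* and *Mrpl33*, next in level after *Mrpl42*, had the shortest such transcripts of 418 and 478 bases, and *Mrpl17*, the lowest in level, the longest of 7300 bases. Spearman's rho between this length and mean FPKM was -0.783 over the 49 genes and -0.106 over the 12030 protein-coding genes. It is a description across genes measured in the same libraries, whose FPKM was itself divided by length. Length and log2 fold change had a rho of 0.198 over the 49 genes, and mean level and log2 fold change one of -0.251.

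None of the 49 genes differed between cKO and Ctrl at an adjusted p under 0.05 in limma, against a background of 0.0830% of all 13260 genes tested. The smallest adjusted p was 0.166, for *Mrpl42*. At an unadjusted p under 0.05 there were 5 genes, or 10.2%, where 15.0% of all genes tested were at that line. Of these, 2 were higher in cKO, against a background of 5.57%, and 3 lower, against 9.43%. The share of large subunit genes with an unadjusted p under 0.05 was thus not above that of the table, and over the 7894 protein-coding genes within the same range of mean FPKM it was 13.9%. The median log2 fold change of the 49 genes was -0.02, and -0.02 over all genes tested, with 20 genes above and 29 below 0. With erythroid and mitochondrial genes taken out of the total, 15 were above and 34 below 0 with a median of -0.06, where the median of all genes tested was -0.05, and at an unadjusted p under 0.05 in limma 1 was higher, against a background of 4.13% under that scaling, and 5 were lower, against 11.4%.

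Most values lay near 0. The log2 fold changes ran from -0.32 to 0.25, and 42 of 49 were within 0.2 of 0. The interquartile range was 0.17, against 0.24 over all genes tested. For 46 genes the 95% confidence interval of the log2 fold change from limma lay within 0.5 of 0 on either side, and the exceptions were *Mrpl42*, *Mrpl48* and *Mrpl18*, whose intervals reached -0.51, -0.52 and -0.53. Values of the Ctrl and cKO libraries did not overlap in 7 genes, or 14.3%, against a background of 20.8%. In 2 of them all cKO libraries were above, where the background was 7.74%, and in 5 below, where it was 13.0%.

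**Figure D2:**
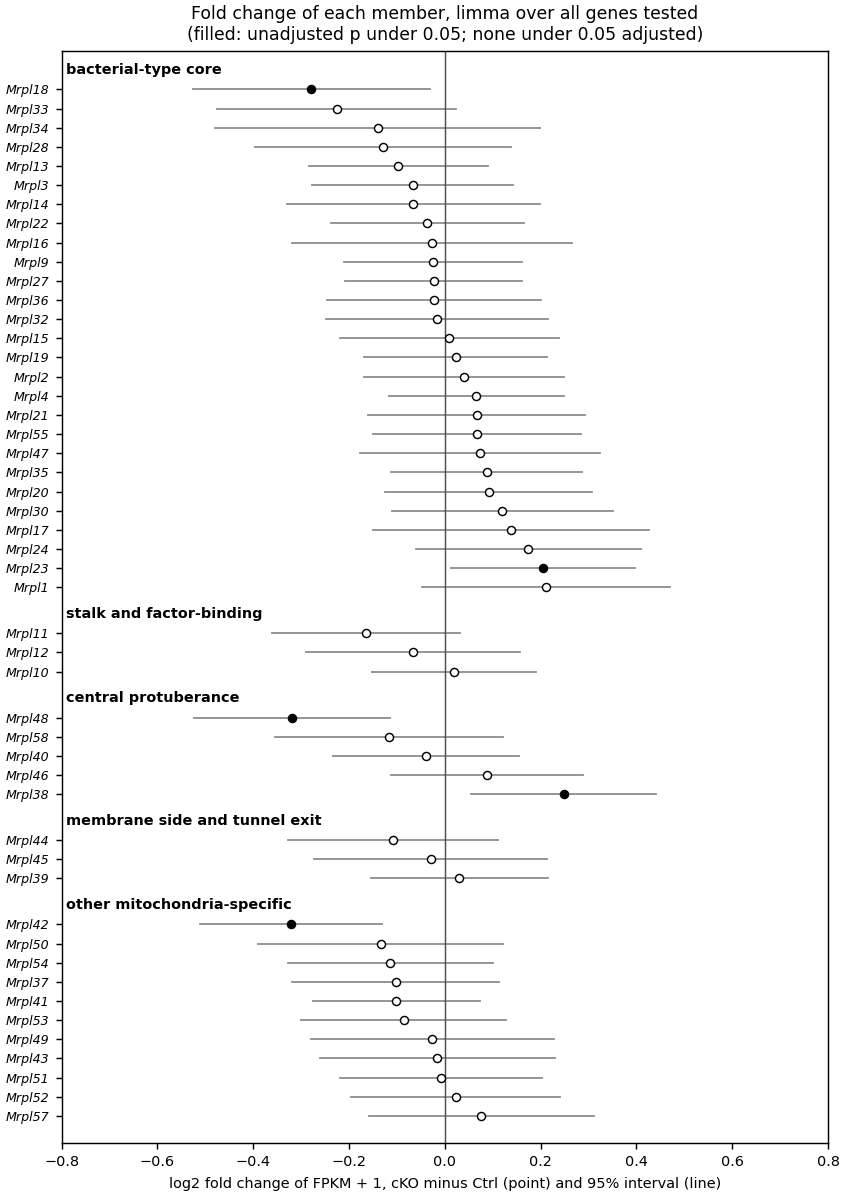
Log2 fold change of FPKM + 1, cKO minus Ctrl (x axis, points), with its 95% confidence interval from limma (lines) for the 49 genes in rows, grouped by the place or origin of the protein in the large subunit; filled points mark an unadjusted p under 0.05. The 5 filled points are *Mrpl18*, *Mrpl23*, *Mrpl48*, *Mrpl38* and *Mrpl42*, all other intervals include 0, and no gene had an adjusted p under 0.05.

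The 27 counterparts of bacterial ribosomal proteins, which build the core around the ribosomal RNA, gave 14 log2 fold changes above and 13 below 0, with a median of 0.01. Those at an unadjusted p under 0.05 in limma were *Mrpl18* and *Mrpl23*, or 7.41% against a background of 15.0%. *Mrpl18* (ENSMUSG00000057388), the counterpart of the bacterial protein that binds 5S ribosomal RNA, had 55.9, 59.1 and 57.5 FPKM in Ctrl replicates 1, 2 and 3 and 42.005, 45.4 and 55.2 FPKM in cKO replicates 1, 2 and 3. The cKO replicates 1 and 2 were well below Ctrl, while the library labelled cKO replicate 3 lay just under the lowest Ctrl library. Its mean was 57.5 ± 1.61 FPKM (SD, n = 3) in Ctrl and 47.5 ± 6.87 FPKM (SD, n = 3) in cKO. The log2 fold change was -0.28 (SE 0.11) with an unadjusted p of 0.0318 and an adjusted p of 0.290 from limma, and -0.39 without cKO replicate 3. The unadjusted p from limma was 0.0529 with median ratio scaling and 0.0594 with the erythroid share as a covariate. In the annotation an exon of *Tcp1* overlaps *Mrpl18* on the opposite strand, and how strand was used in making the FPKM is not given in the sources used here.

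*Mrpl23* (ENSMUSG00000037772), the counterpart of bacterial L23 at the rim of the exit tunnel, had 32.9, 35.8 and 33.8 FPKM in Ctrl and 38.8, 37.3 and 42.6 FPKM in cKO. All cKO libraries were above all Ctrl libraries, with cKO replicate 3 the highest and cKO replicate 2 only slightly above Ctrl replicate 2. The log2 fold change was 0.20 (SE 0.08) with an unadjusted p of 0.0398 and an adjusted p of 0.311 from limma. The unadjusted p was 0.130 without the library labelled cKO replicate 3 (log2 fold change 0.15), 0.0566 with erythroid and mitochondrial genes taken out of the total and 0.179 with the erythroid share as a covariate, so it passed 0.05 in none of these limma fits. A near-identical copy, *Mrpl23-ps1*, is annotated elsewhere in the genome, and how reads that match both were assigned is not given in the sources used here.

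Among the other core proteins, *Mrpl1*, of the L1 stalk beside the exit site of transfer RNA, had the highest log2 fold change of 0.21 (limma adjusted p = 0.422), with 12.1, 15.0 and 11.3 FPKM in Ctrl and 15.3, 15.3 and 14.0 FPKM in cKO. The groups overlapped through Ctrl replicate 2. *Mrpl24*, the counterpart of bacterial L24, had 35.5, 36.3 and 36.2 FPKM in Ctrl and 43.7, 44.1 and 35.0 FPKM in cKO. The cKO replicates 1 and 2 were above Ctrl and the library labelled cKO replicate 3 below it, and its log2 fold change was 0.17 (limma adjusted p = 0.463). *Mrpl34* had a similar split in the other direction, with 36.1, 31.7 and 37.6 FPKM in Ctrl and 26.7, 29.6 and 40.2 FPKM in cKO. *Mrpl16* and *Mrpl27*, whose bacterial counterparts lie next to the peptidyl transferase centre, had log2 fold changes of -0.03 and -0.02. Those of *Mrpl2*, *Mrpl3* and *Mrpl4*, early-binding core proteins in bacteria, were 0.04, -0.07 and 0.07. The remaining core genes, *Mrpl9*, *Mrpl13*, *Mrpl14*, *Mrpl15*, *Mrpl19*, *Mrpl20*, *Mrpl21*, *Mrpl22*, *Mrpl28*, *Mrpl30*, *Mrpl32*, *Mrpl35*, *Mrpl36* and *Mrpl55*, lay between -0.13 for *Mrpl28* and 0.12 for *Mrpl30*.

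The stalk recruits the translation factors that hydrolyse GTP. Its base protein *Mrpl10* (ENSMUSG00000001445) had 18.4, 18.2 and 18.7 FPKM in Ctrl and 18.1, 19.1 and 18.9 FPKM in cKO, a log2 fold change of 0.02. Its neighbour *Mrpl11* (ENSMUSG00000024902) had 11.8, 12.4 and 12.8 FPKM in Ctrl and 10.1, 11.2 and 11.4 FPKM in cKO. All cKO libraries of *Mrpl11* were below all Ctrl libraries, and the log2 fold change was -0.16 (SE 0.09, limma adjusted p = 0.410). *Mrpl12* (ENSMUSG00000039640), the mobile stalk protein that also binds the mitochondrial RNA polymerase, had 52.7, 57.8 and 62.2 FPKM in Ctrl and 52.5, 52.1 and 60.3 FPKM in cKO, with a log2 fold change of -0.07. The groups overlapped for *Mrpl10* and *Mrpl12*. Mean FPKM over the 6 libraries was 56.3 for *Mrpl12*, 18.6 for *Mrpl10* and 11.6 for *Mrpl11*.

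The central protuberance is the part of the large subunit that faces the small subunit at its top and that in mammalian mitochondria is enlarged by added proteins. Of its 5 genes, 2 had an unadjusted p under 0.05, where 15.0% of all genes tested did, with 1 in each direction. *Mrpl48* (ENSMUSG00000030706) had 9.93, 9.52 and 9.87 FPKM in Ctrl and 8.18, 7.74 and 7.03 FPKM in cKO. The groups were apart, and the library labelled cKO replicate 3 was the lowest of all. Its mean was 9.77 ± 0.223 FPKM (SD, n = 3) in Ctrl and 7.65 ± 0.576 FPKM (SD, n = 3) in cKO, with a log2 fold change of -0.32 (SE 0.09), an unadjusted p of 0.00679 and an adjusted p of 0.180 from limma. With only the most abundant of its transcripts, the value turned to 0.01 (limma adjusted p = 0.988). *Mrpl38* (ENSMUSG00000020775) had 19.9, 20.8 and 23.1 FPKM in Ctrl and 25.5, 25.9 and 24.8 FPKM in cKO. Again the groups were apart, with the cKO libraries within a narrow range above Ctrl. Its mean was 21.3 ± 1.67 FPKM (SD, n = 3) in Ctrl and 25.4 ± 0.527 FPKM (SD, n = 3) in cKO, with a log2 fold change of 0.25 (SE 0.08), an unadjusted p of 0.0183 and an adjusted p of 0.242 from limma. The other 3 genes were *Mrpl40*, *Mrpl46* and *Mrpl58*, the last of which encodes a peptidyl-tRNA hydrolase built into the ribosome, with log2 fold changes of -0.04, 0.09 and -0.12.

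The proteins at the membrane side and the tunnel exit hold the ribosome at the inner membrane, where its products are inserted. *Mrpl45*, which anchors the mitoribosome to the inner membrane, had 15.8, 18.2 and 20.2 FPKM in Ctrl and 18.25, 18.3 and 16.3 FPKM in cKO, with a log2 fold change of -0.03. All cKO libraries were inside the Ctrl range. *Mrpl39* and *Mrpl44* had log2 fold changes of 0.03 and -0.11, and 0 of these 3 genes had an unadjusted p under 0.05 in limma, where 15.0% of all genes tested did.

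In the 11 other mitochondria-specific proteins, 9 log2 fold changes were below and 2 above 0, with a median of -0.09. Of the 13260 genes tested, 7293 were below 0. At an unadjusted p under 0.05 in limma there was 1 of the 11, or 9.09% against a background of 15.0%. *Mrpl42* (ENSMUSG00000062981) gave the smallest p of all 49 genes and a log2 fold change next to that of *Mrpl48*. In 7 of the 16 alternative settings the value of *Mrpl48* was the lower of the 2. Its FPKM was 108.2, 113.0 and 114.1 in Ctrl and 85.6, 86.5 and 96.0 in cKO, so that every cKO library lay below every Ctrl library. Its mean was 111.8 ± 3.15 FPKM (SD, n = 3) in Ctrl and 89.4 ± 5.74 FPKM (SD, n = 3) in cKO, a log2 fold change of -0.32 (SE 0.08), with an unadjusted p of 0.00446 and an adjusted p of 0.166 from limma. A near-identical copy, *Gm6419*, is annotated in the genome and is not listed in the table. *Mrpl41* had 30.9, 31.0 and 30.1 FPKM in Ctrl and 27.3, 28.5 and 29.9 FPKM in cKO, apart by a small gap, with a log2 fold change of -0.10 (limma adjusted p = 0.573). The other genes were *Mrpl37*, *Mrpl43*, *Mrpl49*, *Mrpl50*, *Mrpl51*, *Mrpl52*, *Mrpl53*, *Mrpl54* and *Mrpl57*, which lay between -0.13 for *Mrpl50* and 0.08 for *Mrpl57*.

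**Figure D3:**
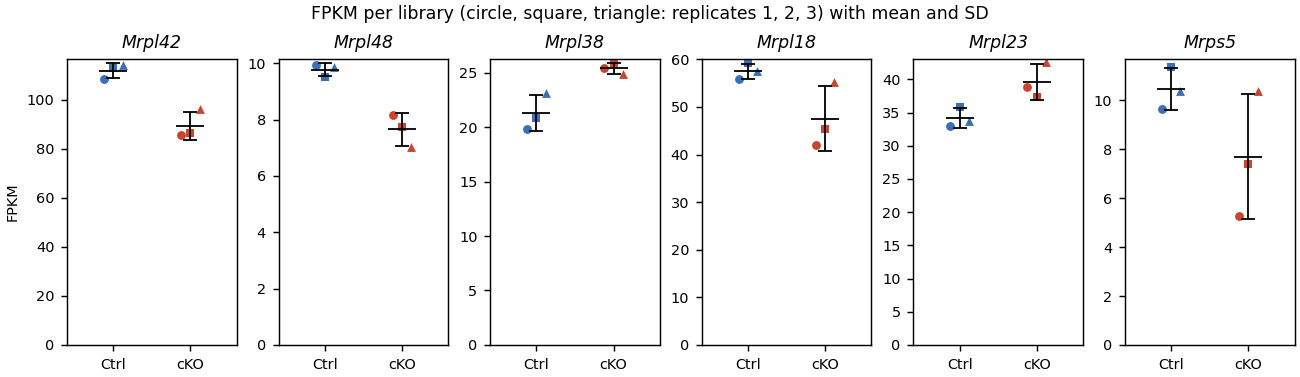
FPKM per library (y axis, from 0) of the 5 large subunit genes with an unadjusted p under 0.05 and of the deleted gene *Mrps5* in Ctrl and cKO; circles, squares and triangles are replicates 1, 2 and 3, and the bars give the mean and SD. The groups are apart in the 5 large subunit genes, by the least in *Mrpl18* (55.9 against 55.2 FPKM), and overlap in *Mrps5* through the library labelled cKO replicate 3 at 10.4 FPKM.

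Leaving out the library labelled cKO replicate 3 moved single genes more than the whole. Then 7 genes had an unadjusted p under 0.05 in limma, against a background of 15.2%, with *Mrpl18*, *Mrpl33*, *Mrpl34*, *Mrpl42* and *Mrpl48* lower in cKO at -0.39, -0.31, -0.31, -0.37 and -0.27 and *Mrpl24* and *Mrpl38* higher at 0.28 and 0.26. The number with an adjusted p under 0.05 was again 0, against a background of 2.04%. The values of the remaining libraries did not overlap in 19 genes, 6 higher and 13 lower, where the background was 32.5%. The library labelled cKO replicate 3 was inside the Ctrl range in 26 of the 49 genes, cKO replicate 1 in 25 and cKO replicate 2 in 17. The same counts were not taken over all genes tested, so whether other genes differ from these was not tested.

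The abundance of the whole subunit was also compared. The FPKM of the 49 genes summed to 1282, 1342 and 1374 in Ctrl replicates 1, 2 and 3 and to 1235, 1287 and 1338 in cKO replicates 1, 2 and 3. The sums overlapped between the groups, and in both groups replicate 1 was the lowest and replicate 3 the highest. As a share of all FPKM they made up 0.282%, 0.287% and 0.293% in Ctrl and 0.239%, 0.282% and 0.265% in cKO, with the low shares in the 2 libraries that held the most erythroid FPKM. With erythroid marker genes left out of the total, the shares were 0.321%, 0.331% and 0.333% in Ctrl and 0.313%, 0.316% and 0.339% in cKO, and the groups overlapped.

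The summed FPKM of the large subunit was set against that of 30 genes of the small subunit. The ratio was 1.88, 1.87 and 1.86 in Ctrl and 1.83, 1.81 and 1.85 in cKO, and all cKO values lay below all Ctrl values, that of cKO replicate 3 only just. The small subunit genes include *Mrps5* itself, and without it the ratios were 1.91, 1.90 and 1.88 in Ctrl and 1.85, 1.83 and 1.87 in cKO. Without *Mrpl42*, left out because its level was the highest and its value among the lowest, they were 1.72, 1.71 and 1.70 in Ctrl and 1.71, 1.69 and 1.71 in cKO, and overlapped. Leaving out a gene picked for a low value raises the cKO ratios against Ctrl by construction. The overlap therefore does not show what the lower ratios rest on.

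Large subunit proteins that carry other names were read off the same fit. *Gadd45gip1*, whose product sits on the large subunit beside the exit tunnel, had 10.8, 11.6 and 11.3 FPKM in Ctrl and 12.3, 12.5 and 13.6 FPKM in cKO, with a log2 fold change of 0.17 (limma adjusted p = 0.384). *Mrps30*, a large subunit protein in spite of its symbol, had 11.7, 11.7 and 12.4 FPKM in Ctrl and 13.4, 13.9 and 12.9 FPKM in cKO, with a log2 fold change of 0.15 (limma adjusted p = 0.408). In both the cKO libraries were all above the Ctrl libraries, as they were in 7.74% of all genes tested. *Mrps18a*, also a protein of the large subunit, overlapped between the groups with a log2 fold change of 0.05. Of these 3 genes, 0 had an unadjusted p under 0.05 in limma, against a background of 15.0%. Without cKO replicate 3 it was again 0, against 15.2%.

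Of 21 factors that assemble or modify the large subunit, 9 had log2 fold changes above and 12 below 0, with a median of -0.03, and 0 had an unadjusted p under 0.05 in limma, against a background of 15.0%. Their groups did not overlap in 7, or 33.3%, against a background of 20.8%, with 4 higher and 3 lower in cKO. Without cKO replicate 3, 2 had an unadjusted p under 0.05, *Nsun4* and *Rpusd3*, both at 0.29 on the log2 scale, against a background of 15.2%, and the median was 0.01. The 3 with the smallest p were *Rpusd3*, a pseudouridine synthase family member, *Ngrn*, a factor needed for the large ribosomal RNA, and *Mterf4*, which brings the methyltransferase NSUN4 to the large subunit. Their log2 fold changes were 0.25, 0.18 and -0.23, and their adjusted p from limma 0.333, 0.360 and 0.384. The values of *Rpusd3* were 3.05, 2.73 and 3.18 FPKM in Ctrl and 4.04, 3.70 and 3.44 FPKM in cKO, with the groups apart.

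Of the 30 small subunit genes, 13 had log2 fold changes above and 17 below 0, with a median of -0.01, and 2, or 6.67%, had an unadjusted p under 0.05, against a background of 15.0%, with 1 in each direction. *Mrps18b* was higher at 25.3, 27.9 and 21.5 FPKM in cKO against 18.2, 18.0 and 18.0 FPKM in Ctrl, with a log2 fold change of 0.43 (SE 0.10, limma adjusted p = 0.153). Without the library labelled cKO replicate 3 its log2 fold change was 0.53 with a limma adjusted p of 0.0305. *Mrps25* was lower at 3.76, 4.12 and 4.48 FPKM in cKO against 5.27, 4.86 and 5.02 FPKM in Ctrl, with a log2 fold change of -0.24 (limma adjusted p = 0.312). The Ctrl and cKO libraries were apart in both genes, as they were in 4 of the 30, or 13.3%, against a background of 20.8%. With all 6 libraries no gene of the large subunit, its assembly factors or the small subunit had an adjusted p under 0.05, and without cKO replicate 3 *Mrps18b* did, as 1 of 4 small subunit genes with an unadjusted p under 0.05, where the backgrounds were 2.04% and 15.2%.

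**Figure D4:**
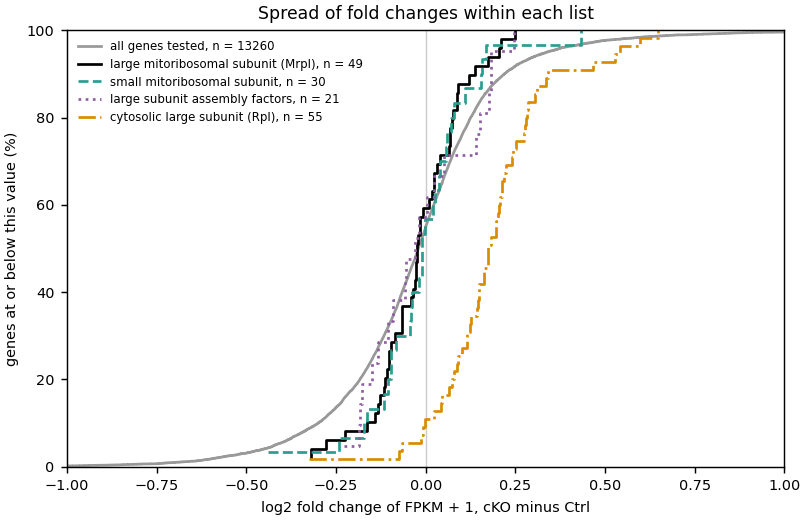
Share of genes (y axis, %) at or below each log2 fold change of FPKM + 1, cKO minus Ctrl (x axis, drawn from -1 to 1), for all 13260 genes tested, the 49 large subunit genes, 30 small subunit genes, 21 assembly factors and 55 cytosolic *Rpl* genes. The large and small mitoribosomal subunits cross 50% at -0.02 and -0.01, near all genes at -0.02, and the cytosolic *Rpl* genes at 0.17.

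The table lists 1 transcript for 25 of the 49 genes and more for 24, up to 7 for *Mrpl48*. Of the 24 genes, the most abundant transcript held over 90% of the FPKM in 12 and under 60% in 6, which were *Mrpl1*, *Mrpl2*, *Mrpl24*, *Mrpl30*, *Mrpl48* and *Mrpl55*. In *Mrpl42* a transcript of 661 bases (ENSMUST00000218893) held 87.2% of the FPKM, at 86.5, 103.8 and 99.3 FPKM in Ctrl and 77.0, 72.4 and 87.1 FPKM in cKO. The cKO replicate 3 value overlapped with Ctrl replicate 1, so the groups were apart in the sum of the gene and not in this transcript.

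In *Mrpl48* the most abundant transcript, of 4285 bases (ENSMUST00000150042), held 32.4% and had 2.53, 3.31 and 2.63 FPKM in Ctrl and 2.60, 2.72 and 3.18 FPKM in cKO, a log2 fold change of 0.01. The lower sum in cKO thus came from the other transcripts. The one of 1625 bases (ENSMUST00000146003) had 2.76, 2.68 and 1.72 FPKM in Ctrl and 1.603, 1.25 and 0.838 FPKM in cKO, all below Ctrl. The one of 713 bases (ENSMUST00000137777) went the other way, with means of 0.455 FPKM in Ctrl and 1.06 FPKM in cKO, and its groups overlapped. A near-identical copy, *Mrpl48-ps*, is annotated in the genome and exons of *Rab6a* overlap the gene on the opposite strand.

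In *Mrpl1* the transcript of 1550 bases (ENSMUST00000121477) had 4.29, 10.2 and 3.09 FPKM in Ctrl and 10.3, 9.94 and 9.60 FPKM in cKO, and the one of 3431 bases (ENSMUST00000036437) had 7.79, 2.39 and 8.19 FPKM in Ctrl and 0.787, 1.94 and 3.59 FPKM in cKO. Where 1 was high the other was low, with Ctrl replicate 2 on the side of the cKO libraries, while the sums stayed between 11.3 and 15.3 FPKM. The division of reads among transcripts that share most of their sequence is an estimate, and its error is not given in the table.

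**Figure D5:**
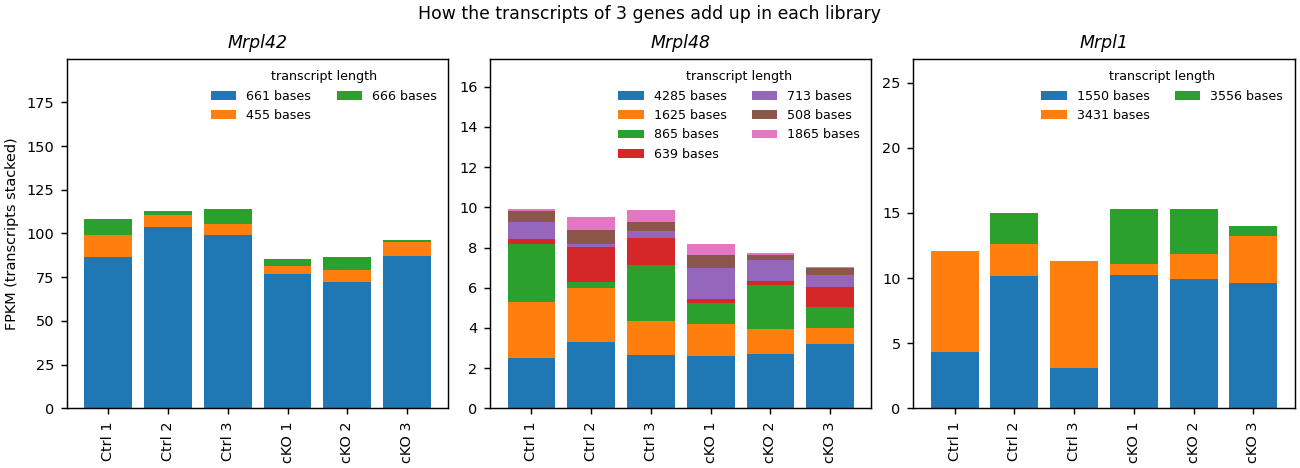
FPKM of the transcripts of *Mrpl42*, *Mrpl48* and *Mrpl1* stacked per library (y axis from 0; x axis Ctrl and cKO replicates 1 to 3), coloured by transcript and labelled with its length in bases. In *Mrpl42* 1 transcript makes up 87.2% of the sum, in *Mrpl48* the 4285-base transcript is level across libraries, and in *Mrpl1* the 1550-base and 3431-base transcripts trade places in Ctrl replicates 1 and 3.

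The 49 genes lie on 17 chromosomes, with 8 on chromosome 11 and 5 on chromosome 19. In the GENCODE M21 annotation 12 of them start within 1000 bases of a protein-coding gene that runs the other way, 20 share exon sequence with a gene on the opposite strand, and 9 have a near-identical copy, with at least 95% identity over at least 200 bases. None of these 9 copies is listed in the table. Among the genes with an unadjusted p under 0.05, *Mrpl42*, *Mrpl48* and *Mrpl23* have such a copy, *Mrpl48* and *Mrpl18* an overlap on the opposite strand, and *Mrpl38* neither.

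Promoters were examined for what the genes share beyond their name. RefSeq promoters of build GRCm38.p6, of 250 bases before to 50 after the start, were matched for 43 of the 49 genes and for 9582 of the genes tested. Some genes have several listed promoters, and a gene was counted for a motif found in any of them. Nuclear genes for mitochondrial proteins are known for binding sites of NRF1, of ETS factors such as GABPA (also called NRF2) and of YY1. A few promoter stretches are shown as examples, each chosen because it holds 1 of these motifs, in capitals, in lower case otherwise and 5′ to 3′ on the strand of the gene. The stretch of *Mrpl12* lies at chr11:120484517-120484636 on the plus strand, that of *Mrpl58* at chr11:115403632-115403751 on the plus strand and that of *Mrpl42* at chr10:95501900-95501929 on the minus strand, in GRCm38.p6 and not in the build of the deposited files.
Mrpl12, NRF1 motif on the opposite strand: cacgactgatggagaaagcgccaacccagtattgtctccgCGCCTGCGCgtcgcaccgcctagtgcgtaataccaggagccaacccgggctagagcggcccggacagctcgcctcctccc
Mrpl58, ETS motif: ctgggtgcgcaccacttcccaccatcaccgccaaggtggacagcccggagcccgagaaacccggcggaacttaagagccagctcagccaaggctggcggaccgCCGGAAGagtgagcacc
Mrpl42, YY1 motif: ttgaagcAAGATGGCGagcgcgcggtgagt

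On either strand, the ETS motif CCGGAAG was found in 15 genes, or 34.9%, against 20.5% of the genes tested. The NRF1 motif GCGCANGCG was found in 12, or 27.9%, against 15.6%, and the YY1 motif AAGATGGCG in 4, or 9.30%, against 3.75%. The SP1 motif GGGCGG went the other way, with 17 genes, or 39.5%, against 70.2%. The median GC content of the promoters was 57.7% in the large subunit genes and 61.0% in the genes tested. Its part in these shares was not tested. The CCAAT box was in 15, or 34.9%, against 43.2%, the MYC E-box CACGTG in 4, or 9.30%, against 12.0%, and TATAAA in 3, or 6.98%, against 8.41%. An ATF4 element, TGATGNAA, was in 0 of the 43 genes and in 2.57% of the genes tested. The motifs do not contain one another.

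The log2 fold changes of genes with and without each motif are given with no test. The median log2 fold change was -0.04 for the 15 genes with the ETS motif and -0.02 for the others, -0.02 for the 12 with the NRF1 motif and -0.03 for the others, and -0.06 for the 4 with the YY1 motif, *Mrpl35*, *Mrpl36*, *Mrpl37* and *Mrpl42*, and -0.02 for the others. For the 15 with a CCAAT box it was -0.10, and -0.01 for the others. With and without the motif it was -0.02 and -0.03 for SP1, 0.01 and -0.03 for the E-box and -0.03 and -0.02 for TATAAA. These matches are descriptions of the letters in the window, and no binding was measured.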

How the data were processed

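The authors deposited 1 table of FPKM values per transcript for 6 libraries of embryonic mouse hearts, 3 Ctrl and 3 cKO. The submitters' processing notes name Bowtie2 2.2.8, HISAT2, StringTie 1.3.1, Cuffdiff 2.1.1 and build mm9, with no role given, and the annotation release and the strand setting are not given in the sources used here. FPKM of transcripts were summed per gene, 1 was added, and log2 values of cKO and Ctrl were compared with limma 3.58.1 (R 4.3.3), with a trended variance and Benjamini-Hochberg adjustment, over the 13260 genes with at least 1 FPKM in at least 3 libraries. Tests were two-sided and p-values measure the spread between these pools of littermates. The fold change on this scale understates that of genes with low FPKM. The fit was tested on simulated data. The members, role groups, other gene lists and motifs were chosen with earlier results of these data known. The per-library values named are those of genes with an unadjusted p under 0.05, of the 3 highest and 3 lowest genes in level, of the stalk, of large subunit genes with other names and of the genes with the smallest p in the other lists. *Mrpl1*, *Mrpl24*, *Mrpl34*, *Mrpl41*, *Mrpl45* and *Nsun4*, the transcripts and the example promoters were named after their values were seen. Depth is unknown from FPKM, so no counting interval is given. The 16 alternatives are in the closing section. Copies of genes were found with blastn 2.17.0 in GENCODE M21, whose build, GRCm38, is not that of the files, so it gave names and neighbours only.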

Additional observations from a re-analysis of the deposited data

How the results depend on the processing

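No large subunit gene had an adjusted p under 0.05 in limma under any of the 16 alternatives, and the median log2 fold change of the 49 genes lay between -0.0576 and 0.0103, and moved from -0.0237 by less than the SD of the library medians, 0.0458. Over all genes tested, the count at an adjusted p under 0.05 was 11, and it was 6 with no filter on low values, 4 with the most abundant transcript of each gene alone, 6 without a trended variance, and 5 to 270 with 1 library left out, with 121 without cKO replicate 2 and 270 without cKO replicate 3. The count of large subunit genes at an unadjusted p under 0.05 was 5, and it was 3 with the erythroid share as a covariate and 2 to 7 with 1 library left out (2 without Ctrl replicate 1, 3 without Ctrl replicate 3 and 3 without cKO replicate 1). Of all genes tested, 15.0% were at that line, 10.2% with the covariate and 9.17% to 16.3% with 1 library left out. The count of those without overlap between groups was 7, and 8 to 19 with 1 library left out (12 without Ctrl replicate 2 and 19 without cKO replicate 3), where the share of all genes tested was 20.8%, and 27.0% to 35.7% with 1 library left out (31.4% and 32.5% for these 2); a smaller group overlaps less by construction. *Mrpl42* kept an unadjusted p under 0.05 in 16 of 16 alternatives, *Mrpl48* in 15, *Mrpl38* in 14, *Mrpl18* in 9 and *Mrpl23* in 8. *Mrpl48* turned to 0.0066 with its most abundant transcript alone (adjusted p = 0.988). Among genes near 0, *Mrpl52* turned from 0.02 to -0.011 with erythroid and mitochondrial genes taken out of the total, to -0.0121 with quantile normalization, to -0.0408 with the erythroid covariate and to between -0.0497 and 0.0767 with 1 library left out. *Mrpl10* turned to -0.0136 with erythroid and mitochondrial genes taken out, and *Mrpl47* ranged from -0.0036 to 0.17 with 1 library left out. A scaling turned the sign of 9 genes, *Mrpl10*, *Mrpl15*, *Mrpl19*, *Mrpl32*, *Mrpl36*, *Mrpl39*, *Mrpl43*, *Mrpl51* and *Mrpl52*, and 25 never turned; the cause was not tested. Same-numbered Ctrl and cKO libraries deviated together with correlations of 0.217, 0.111 and 0.0901 for numbers 1, 2 and 3. Between differently numbered libraries the correlations ran from -0.171 to 0.0488. The labels do not say whether same-numbered libraries are pairs, and the main fit did not pair them. With the replicate number as a block, 4 of all genes tested and 0 large subunit genes had an adjusted p under 0.05, and 6 large subunit genes, or 12.2%, and 16.7% of all genes tested an unadjusted p under 0.05.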

Other observations

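The cytosolic large ribosomal subunit, made of *Rpl* and *Rplp* proteins, was read off the same fit. Of 55 of its 61 listed genes that passed the filter on low values, 49 had log2 fold changes above and 6 below 0, with a median of 0.17, and 24 had all cKO libraries above all Ctrl libraries, where 7.74% of all genes tested did. Under 4 other scalings or covariates and without cKO replicate 3, 44 to 52 of the 55 were above 0 and the median was 0.09 to 0.20. At an unadjusted p under 0.05 in limma there were 13, all higher in cKO, where 5.57% of all genes tested were, and 7, all higher, without cKO replicate 3, where 6.42% of all genes tested were. None had an adjusted p under 0.05 in that fit or with all 6 libraries, and without cKO replicate 2 *Rpl29* did (limma adjusted p = 0.0421), as did 0.913% of all genes tested. *Rpl29* had 209.3, 251.1 and 237.5 FPKM in Ctrl and 379.9, 295.0 and 388.4 FPKM in cKO, a log2 fold change of 0.60 (SE 0.13, limma adjusted p = 0.139). *Rpl14* had 281.8, 340.5 and 316.3 FPKM in Ctrl and 390.2, 377.3 and 419.2 FPKM in cKO, a log2 fold change of 0.34 (limma adjusted p = 0.212). In both genes the cKO libraries were all above the Ctrl libraries, and cKO replicate 2, which held the least erythroid FPKM, was the lowest of the cKO libraries. With the erythroid share as a covariate, 48 of the 55 were above 0 with a median of 0.15, and *Rpl29* had a limma adjusted p of 0.3575. Beyond the fits named here, the part of erythroid RNA in these values was not tested. The list holds genes with many processed copies and 1 or more entries with pseudogene names, such as *Rpl27-ps3* at 0.65, and reads of such copies may be divided among them.

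In *Mrpl30* the transcript of 587 bases (ENSMUST00000195373) had 3.09, 14.4 and 1.56 FPKM in Ctrl replicates 1, 2 and 3 and 3.21, 20.5 and 10.5 FPKM in cKO replicates 1, 2 and 3. It was highest in replicate 2 of both groups, and the sum over the gene's transcripts ran from 43.9 to 55.7 FPKM over the 6 libraries.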
